A study of Mus musculus with 4 samples.

Results

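The transcripts of 10 heat shock protein genes were followed in endothelial cells that had been digested out of mouse aorta and lung: Hspa1a, Hspa1b, Dnajb1, Hsph1, Hsp90aa1, Hspb1, Hspa8, Hsp90ab1, Hspd1 and Hspe1. They were chosen by name, with earlier results of these data known, and are 10 of the 30450 gene symbols shared by the aortic and lung count matrices. Only cell barcodes with at least 500 UMIs (counted RNA molecules) and at most 15% mitochondrial UMIs entered. Of the 10, 6 were grouped as inducible (Hspa1a, Hspa1b, Dnajb1, Hsph1, Hsp90aa1, Hspb1) and 4 as constitutive (Hspa8, Hsp90ab1, Hspd1, Hspe1), from general knowledge of these genes.

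All mice were female Apoe knockouts on a C57/B6J background that had eaten a Western diet for 5 weeks, and their endothelial lineage was marked by eYFP through Cdh5. They differed in the endothelial Oct4 gene, which was either intact (Oct4 wild type, 2 mice) or deleted (Oct4 knockout, 3 mice). The sources used here do not give their ages. Aorta (arch, thoracic and abdominal parts) and the left lung lobe were digested in buffers containing 1 µg/mL actinomycin D, an inhibitor of transcription, and eYFP+ cells were sorted and captured as 1 droplet library per tissue and genotype. The mice of a genotype were pooled, so each of the 4 groups is 1 library. No test between groups was possible, and the 95% intervals given here cover counting error only, not the spread between mice or between cells. They treat each UMI as independent, so they are too narrow for members whose UMIs gather in few cells, such as Hspa1a and Hspb1. Undigested tissue was not analysed here, so what digestion contributed to any level was not tested.

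Heat shock proteins are chaperones that bind unfolded or partly folded proteins. The inducible members are switched on when the transcription factor HSF1 is released from chaperones by misfolded protein and binds heat shock elements, short inverted repeats of the letters GAA and TTC in promoters. The constitutive members fold proteins in unstressed cells: Hspa8 and Hsp90ab1 in the cytosol, Hspd1 and Hspe1 as the barrel and lid of the mitochondrial chaperonin. Inducible heat shock genes, like immediate early genes, are known to rise in cells during tissue dissociation, and actinomycin D is used to limit this.

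The upstream sequences of the members show where the core letters of the heat shock element occur. The 150 bases before the start of each gene below are from RefSeq promoters on GRCm38.p6, written 5′ to 3′ on the strand of the gene, with capitals marking each GAANNTTC or TTCNNGAA. Each motif reads the same on both strands, and matches may overlap. Hspa1a and Hspa1b are shown because their windows are nearly the same, and Hspb1 because it holds a pair of matches.
Hspa1a: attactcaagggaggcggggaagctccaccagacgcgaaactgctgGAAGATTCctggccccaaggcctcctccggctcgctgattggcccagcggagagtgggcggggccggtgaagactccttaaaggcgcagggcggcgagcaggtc
Hspa1b: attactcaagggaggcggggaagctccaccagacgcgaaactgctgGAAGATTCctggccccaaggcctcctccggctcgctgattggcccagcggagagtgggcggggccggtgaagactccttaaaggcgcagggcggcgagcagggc
Hspb1: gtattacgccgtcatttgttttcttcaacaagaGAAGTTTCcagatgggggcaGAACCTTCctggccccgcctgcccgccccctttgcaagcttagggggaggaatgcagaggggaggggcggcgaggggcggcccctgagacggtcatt
The Hspa1a window lies at chr17:34972157-34972306 and the Hspa1b window at chr17:34959239-34959388, both on the minus strand. They differed at 1 of 150 positions, and in both the match began 104 bases before the start. The Hspb1 window, at chr5:135887769-135887918 on the plus strand, held matches 117 and 97 bases before the start.

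Shorter stretches are given for Hspe1 and Hsph1, whose windows run into annotated exons. The Hspe1 stretch, shown because it holds the most matches of those printed, lies before the start of Hspe1 and, in the GENCODE M21 annotation, within Hspd1, which starts further along on the other strand. RefSeq gives 2 starts for Hspd1, and the 150 bases before 1 of them hold the same 3 matches while those before the other hold 0.
Hspe1: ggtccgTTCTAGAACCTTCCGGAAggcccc
Hsph1: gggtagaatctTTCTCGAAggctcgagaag
The Hspe1 stretch is chr1:55088053-55088082 on the plus strand, with 3 overlapping matches of which the farthest began 89 bases before the start. The Hsph1 stretch is chr5:149636351-149636380 on the minus strand, with 1 match 33 or 54 bases before the RefSeq starts. No match was found in the printed-length window of Dnajb1 at chr8:83608025-83608174, which says only that these letters are not there. RefSeq promoters were matched for 7 members and not for Hspa8, Hsp90aa1 and Hsp90ab1. Of all 32851 promoters in the table, 7.73% held the motif within 150 bases and 0.606% held 2 or more matches. A match describes the letters and is not a measured binding site.

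In the GENCODE M21 annotation of GRCm38, Hspa1a (chr17:34969190-34972156) and Hspa1b (chr17:34956436-34959238) are single-exon neighbours 9951 bases apart. Of the 50-base words in the Hspa1a transcript, 60.3% recur in other transcripts, mostly in Hspa1b, but none of those in its last 300 bases do. Hspa8 (chr9:40800984-40810087, 9 exons) shares 73.2% of its words, 67.3% within its last 300 bases, mostly with the pseudogene Gm15459. For Hspe1 (chr1:55088132-55091307, 4 exons) 43.8% of the words in the last 300 bases recur, and for Hspb1 18.3%. The transcripts sharing most words with these members, Gm15459 for Hspa8, AC117239.2 for Hspe1 and Hsp25-ps1 for Hspb1, have no rows of their own in the count matrices. The sources used here do not say how reads that match several transcripts were counted, so the levels of Hspa8, Hspe1 and Hspb1 are less certain than their counts imply. Hspa1b shares 62.3% of its words, Hsp90aa1 58.5% and Hspd1 44.8%, but, like Hspa1a, none in the last 300 bases. The labels do not say which end of the transcripts was read, so the levels of these members may be less certain too. The remaining members are Dnajb1 (chr8:83608193-83612653, 3 exons), Hsph1 (chr5:149614287-149636376, 18 exons), Hsp90aa1 (chr12:110690605-110702728, 11 exons), Hspb1 (chr5:135887919-135889563, 3 exons), Hsp90ab1 (chr17:45567775-45573271, 11 exons) and Hspd1 (chr1:55077835-55088243, 12 exons).

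The filter kept 404 wild-type aortic, 1569 knockout aortic, 775 wild-type lung and 508 knockout lung cells, with 989757 to 4418832 UMIs per library and a median of 1662 to 2325 UMIs per cell. Libraries shared at most 2 barcodes pairwise. Cdh5 was detected in 63.9 to 83.4% and Pecam1 in 73.7 to 89.7% of cells, and 94.5 to 97.5% of cells fell in endothelial-like clusters. Pou5f1, which encodes Oct4, had 0 to 2 UMIs per library, at or under the 3 UMIs that a count of 0 allows, so it does not check the genotype labels. A single knockout lung barcode held 42860 UMIs, 4.12% of that library. In the knockout lung, erythroid markers summed to 30578 per 1000000 UMIs and lung epithelial markers to 31236, against 1208 and 709 in the wild-type lung. These UMIs enter the denominator of the knockout lung levels, and some lung ratios between genotypes are therefore also given over endothelial-like cells.

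Levels are given per 1000000 UMIs of the kept cells (CPM), and are compared between libraries for 1 gene at a time. Hspa1a, which encodes the main inducible HSP70, was at 205 CPM in aorta of both genotypes, at 245 in lung of the wild type and at 428 in lung of the knockout. The knockout lung stood above the other 3 libraries, whose levels lay close together. Its neighbour Hspa1b, which encodes a nearly identical protein, was at 21.2 CPM (wild type) and 18.8 (knockout) in aorta and at 54.9 and 112 in lung. Both copies were thus highest in the knockout lung, and Hspa1b was lower in both aortic libraries than in both lung libraries.

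Dnajb1, the HSP40 that hands clients to HSP70, was at 112 CPM (wild type) and 93.5 (knockout) in aorta and at 212 and 151 in lung. Here the wild-type lung was highest, so the inducible members did not share 1 order of libraries. Hsph1, an HSP110 that exchanges nucleotide on HSP70, had only 20 and 90 UMIs in aorta and 7 and 16 in lung. Hsp90aa1, the inducible cytosolic HSP90, ranged only from 337 CPM (lung, wild type) to 397 (aorta, knockout). Hspb1, the small heat shock protein HSP25, was at 594 and 615 CPM in the aortic libraries and at 795 and 749 in the lung libraries.

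Among the constitutive members, the HSP70 cognate Hspa8 was at 1029 CPM (wild type) and 1429 (knockout) in aorta and at 1209 and 1378 in lung. Hsp90ab1, the constitutive cytosolic HSP90, was at 1206 and 1454 CPM in aorta and at 878 and 970 in lung. Hspd1 (HSP60) was at 80.8 and 115 CPM in aorta and 53.6 and 65.3 in lung, and its partner Hspe1 (HSP10) at 144 and 165 in aorta and 101 and 99.9 in lung. Hsp90ab1, Hspd1 and Hspe1 were each higher in both aortic libraries than in either lung library, the reverse of Hspa1b, Dnajb1 and Hspb1.

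**Figure D1:**
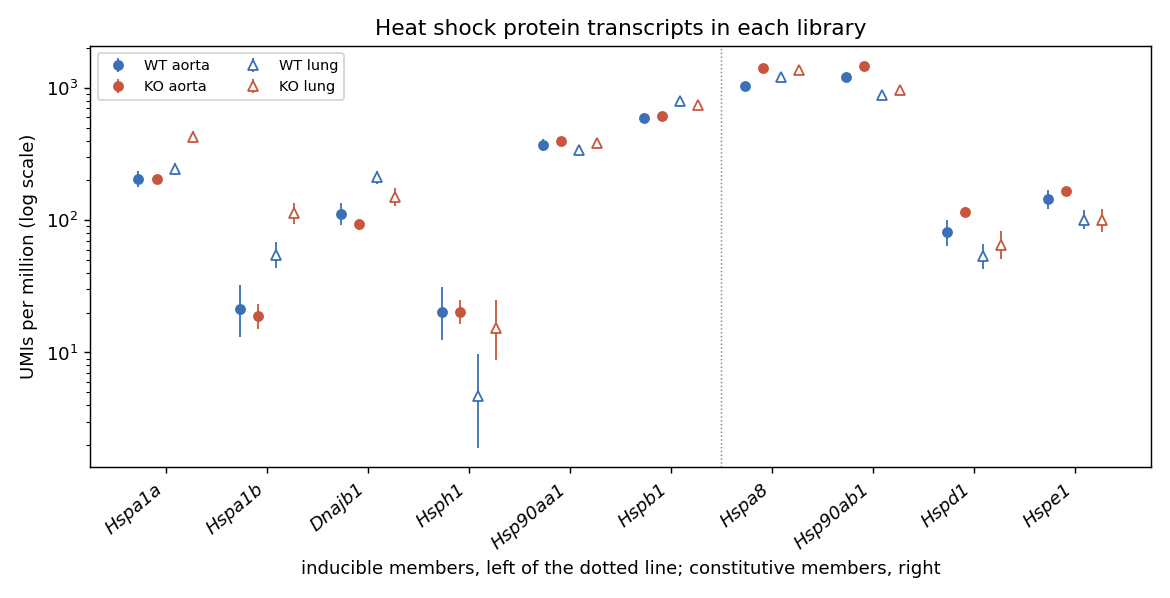
Level of each member in the 4 libraries, in CPM on a log axis, with exact 95% Poisson intervals for counting error (blue, Oct4 wild type, red, Oct4 knockout, circles, aorta, triangles, lung). Hspa1a stood at 428 in the knockout lung and at 205 to 245 elsewhere, while Hsp90ab1, Hspd1 and Hspe1 were highest in the aortic libraries.

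For comparisons between libraries, a gene was measured where its mean was at least 50 CPM with at least 30 UMIs in all, and it was counted as changed in size when the levels were at least 1.5-fold apart. Between the knockout and wild-type aorta, 0 of 8 measured members were 1.5-fold higher and 0 were 1.5-fold lower, where 3.11% of 2992 genes were that much higher and 2.34% that much lower. The knockout to wild-type ratio of Hspa1a was 1.00 (0.859 to 1.17) and that of Dnajb1 0.833 (0.674 to 1.04). Intervals above 1 were found for 3 members: Hspa8 at 1.39 (1.30 to 1.49), Hsp90ab1 at 1.21 (1.13 to 1.28) and Hspd1 at 1.43 (1.12 to 1.83). Here and within clusters further on, the share of all genes with such an interval is not given, so these counts have no background. With the clusters weighted alike the log2 ratio of Hspd1 was 0.06, against 0.51 over all cells, and those of Hspa8 and Hsp90ab1 were 0.39 and 0.23. The median log2 ratio was 0.37 over the 4 constitutive members and 0.03 over the 4 measured inducible members, beside 0.04 over all genes measured. Hspa1b and Hsph1 were below 50 CPM in both aortic libraries.

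The aortic ratios of both classes moved with the makeup of the libraries. Cells of a cluster called aortic wall capillary-like, described further on, made up 14.9% of wild-type and 6.69% of knockout aortic cells. Without that cluster the log2 ratio was 0.31 for Hspa1a, 0.56 for Dnajb1 and 0.64 for Hspa8, against 0.00, −0.26 and 0.47 with it. Dnajb1 thus changed direction, and Hspa8 became 1 member at least 1.5-fold higher. When each cell counted alike (the mean of per-cell CPM), the log2 ratios of Hspa1a and Dnajb1 were −0.41 and −0.75. An unnamed endothelial-like cluster, 7, led by Lum, Serpina3n and Dcn among others, made up 3.47% of wild-type and 10.3% of knockout aortic cells, and its knockout cells were at 169 CPM for Hspd1 and 1822 for Hspa8. Without it the log2 ratio was 0.26 for Hspd1 and 0.36 for Hspa8.

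In the lung, 2 of 9 measured members were at least 1.5-fold higher in the knockout and 0 were 1.5-fold lower, where 1.87% of 3255 genes were that much higher and 3.04% that much lower. They were the neighbours Hspa1a, at 1.75-fold (1.52 to 2.01), and Hspa1b, at 2.05-fold (1.53 to 2.75). Dnajb1 went the other way, at 1.40-fold lower in the knockout (ratio 0.713, 0.585 to 0.866). Hspa8 and Hsp90ab1 were at 1.14 (1.06 to 1.22) and 1.10 (1.02 to 1.20). Over 11 alternative treatments of the cells and the scaling the Hspa1a ratio stayed between 1.62 and 1.97 and the Hspa1b ratio between 1.93 and 2.69. Over endothelial-like cells alone, the log2 ratio of Hspb1 changed from −0.09 to 0.13 and that of Hspa8 from 0.19 to 0.30. In the same setting that of Hspa1a changed from 0.80 to 0.98 and that of Dnajb1 from −0.49 to −0.33. Hsph1 was below 50 CPM in both lung libraries.

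**Figure D2:**
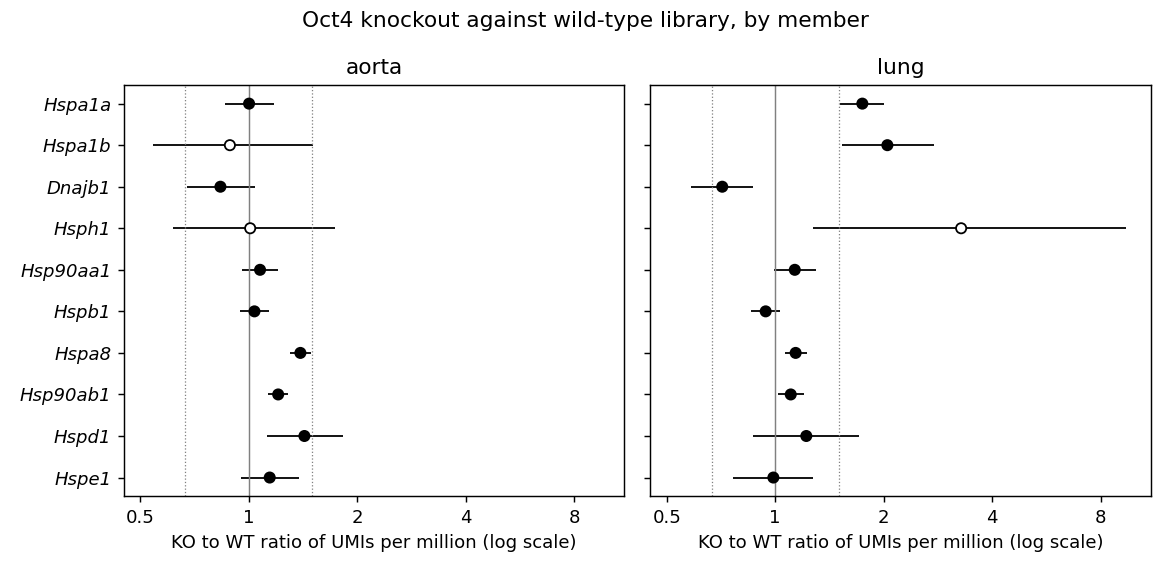
Ratio of knockout to wild-type level for each member in aorta (left) and lung (right), on a log axis, with exact 95% intervals for counting error; open circles mark members below 50 CPM and dotted lines mark 1.5-fold. In the lung Hspa1a (1.75) and Hspa1b (2.05) lay to the right of the 1.5-fold line and Dnajb1 (0.713) to the left of 1.

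Between tissues of the wild-type mice, 1 of 8 measured members was at least 1.5-fold higher in the aorta (Hspd1, 1.51-fold, 1.09 to 2.08) and 1 at least 1.5-fold lower (Dnajb1, 1.89-fold lower), where 14.0% of 3208 genes were that much higher and 24.9% that much lower. Both counts therefore lay near the background. The Hspd1 ratio was close to the threshold, and the count was 0 without the cell with the most inducible UMIs, without the barcode with the most UMIs, with stricter or no cell filters, and with cells thinned to 1000 UMIs. Hsp90ab1 was at 1.37 (1.27 to 1.49) and Hspe1 at 1.43 (1.13 to 1.81), while Hspb1 was at 0.747 (0.676 to 0.825). Hspa1a was at 0.837 (0.702 to 0.997) and Hspa8 at 0.851 (0.787 to 0.919), but with each cell counted alike their log2 ratios turned positive, at 0.16 and 0.05. Without the aortic capillary-like cluster the log2 ratios were lower for the inducible members, at −0.83 for Hspa1a, −1.89 for Dnajb1 and −0.67 for Hspb1, and 3 members were then at least 1.5-fold lower in the aorta.

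Between the knockout aorta and lung, 2 of 9 measured members were at least 1.5-fold higher in the aorta and 3 at least 1.5-fold lower, where 18.5% of 3180 genes were that much higher and 22.0% that much lower. The higher members were the mitochondrial pair, Hspd1 at 1.76-fold (1.37 to 2.31) and Hspe1 at 1.65-fold (1.34 to 2.05). The lower members were Hspa1b at 5.99-fold lower, Hspa1a at 2.08-fold lower and Dnajb1 at 1.61-fold lower. Hsp90ab1, at 1.4996 (1.40 to 1.60), was just short of the threshold, and Hsp90aa1 was at 1.04 (0.930 to 1.16). These tissue ratios share their libraries with the genotype ratios above. They are given over all kept cells only, so the erythroid and lung epithelial UMIs of the knockout lung enter its levels here.

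Summed over the class, aortic inducible UMIs amounted to 0.538 (0.502 to 0.575) of the constitutive UMIs in the wild type and 0.427 (0.414 to 0.440) in the knockout. The lung values were 0.736 (0.698 to 0.775) and 0.731 (0.689 to 0.776). Both lung libraries lay above both aortic libraries. The ratio of these ratios was 0.794 (0.737 to 0.856) for the knockout against the wild-type aorta and 0.994 (0.918 to 1.08) for the lung. It was 0.731 (0.671 to 0.796) for aorta against lung in the wild type and 0.584 (0.546 to 0.624) in the knockout. In the knockout aorta the summed constitutive level was higher and the share of capillary-like cells smaller. Without the capillary-like cluster the aortic values were 0.450 (wild type) and 0.401 (knockout), and within it 1.05 and 0.769. What underlay the aortic difference between genotypes was not tested.

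The most strongly inducible members alone (Hspa1a, Hspa1b, Dnajb1 and Hsph1) amounted to 0.146 (wild type) and 0.107 (knockout) of the constitutive UMIs in aorta and to 0.230 and 0.281 in lung. By this measure the knockout lung stood above the wild-type lung, with a ratio of 1.22 (1.09 to 1.37). In both lung libraries the full ratio was higher in cells at or below the median mitochondrial share than above it, at 0.834 against 0.587 in the wild type and 0.827 against 0.569 in the knockout. In the aorta it was 0.535 against 0.542 and 0.409 against 0.461. The part that cell quality plays in the differences between libraries was not tested.

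Cells of each tissue were clustered with both genotypes together. The members and the gene lists named below were left out of the variable genes, so that the genes compared did not form the clusters. Related genes outside the members and lists, such as the HSP70 family gene Hspa2, were not barred. The highest levels of most members in the aorta were in cluster 8, of 60 wild-type and 105 knockout cells, called aortic wall capillary-like from 7 of its 10 leading genes (Rgcc, Car4, Gpihbp1, Timp4, Cd36, Fabp4 and Lpl). Hspa1a was at 975 CPM in its wild-type cells and 1122 in its knockout cells, against 138 and 163 in the other endothelial-like aortic cells. The ratios were 7.06 (5.25 to 9.47) and 6.88 (5.81 to 8.11), and both libraries thus showed nearly the same difference.

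Dnajb1 was at 737 CPM in wild-type capillary-like cells against 57.0 elsewhere (12.9-fold, 8.72 to 19.2), and at 331 against 83.2 in the knockout (3.98-fold, 2.93 to 5.31). Hspb1 was at 1675 against 482 CPM in the wild type and at 2378 against 523 in the knockout. Hsp90aa1 was at 1112 against 299 and at 766 against 366 CPM. The inducible members measured were all higher in these cells, by 2.09-fold to 12.9-fold.

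The constitutive members separated from each other. Hspa8 moved with the inducible members, at 3112 CPM in wild-type capillary-like cells against 848 elsewhere (3.67-fold, 3.16 to 4.24) and at 4235 against 1309 in the knockout (3.24-fold, 2.98 to 3.50). Hsp90ab1 was at 0.932 (0.745 to 1.15) and 1.14 (1.00 to 1.28) times the level of the other cells, the latter interval lying just above 1. Hspd1 was at 0.761 and 0.793 and Hspe1 at 0.837 and 0.875 times, with intervals that included 1. In all, 5 of 8 measured members were at least 1.5-fold higher in the wild type and 6 of 9 in the knockout, where 25.2% of 2897 and 21.9% of 3013 genes were. The median log2 ratios of the members were 1.84 and 1.69, beside −0.10 and −0.03 over all genes measured.

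**Figure D3:**
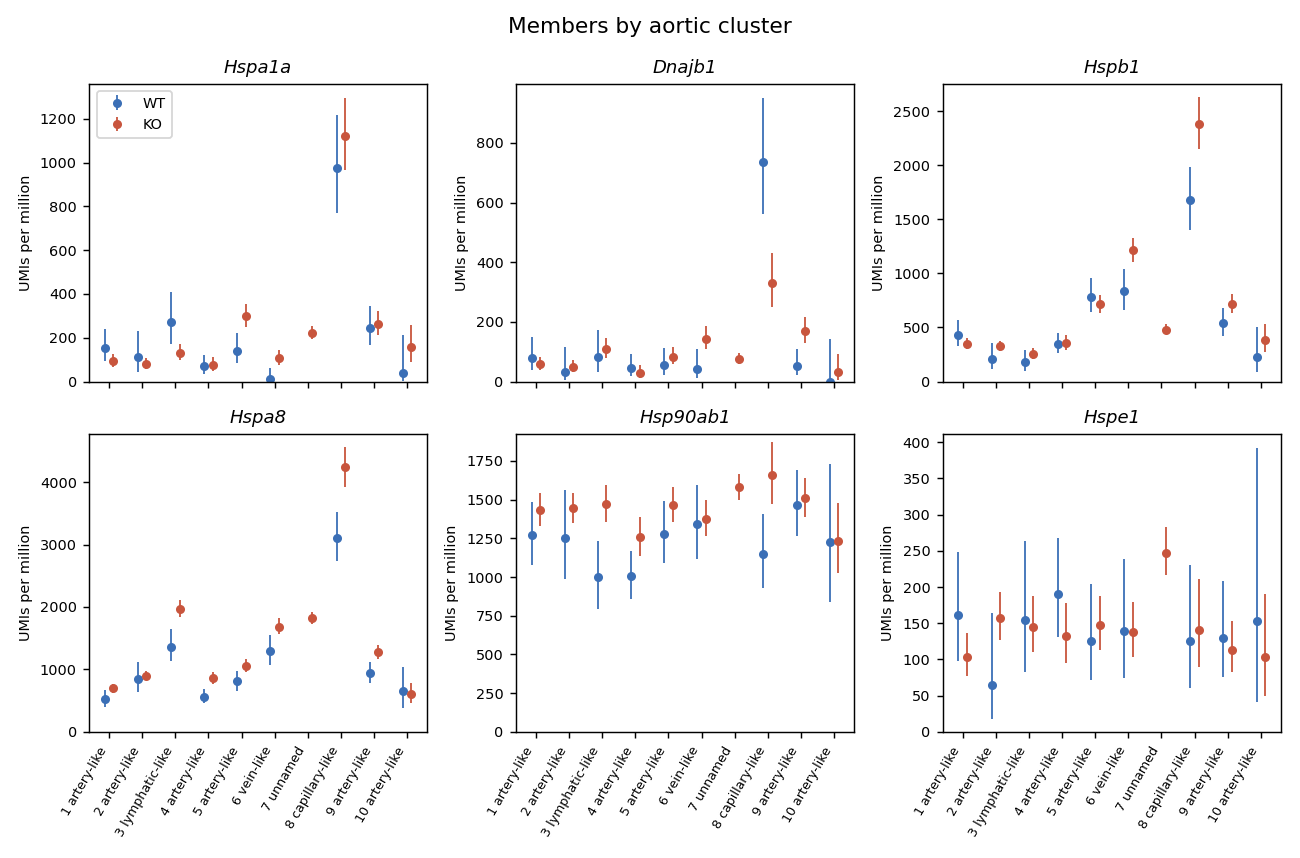
Levels of 6 members in aortic clusters with at least 20 cells of a library, in CPM from 0, with exact 95% Poisson intervals for counting error (blue, wild type, red, knockout). In cluster 8, the capillary-like cells, Hspa1a, Dnajb1, Hspb1 and Hspa8 had their highest levels in both genotypes (Hspa1a at 975 and 1122), while Hsp90ab1 and Hspe1 stayed within the range of the other clusters or near it.

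The difference was also seen per cell at equal depth. With each cell thinned to 1000 UMIs, Hspa1a was detected in 38.2% (22.2 to 56.4, exact binomial interval) of 34 wild-type and 47.6% (36.6 to 58.8) of 84 knockout capillary-like cells. In large artery-like cells it was detected in 12.9% of 210 and 12.7% of 849 cells. Hspb1 was detected in 82.4% and 82.1% of capillary-like cells, against 29.0% and 29.2% of large artery-like cells. Vein-like cells lay between them for Hspb1, which was detected in 17 of 34 wild-type and 79 of 139 knockout cells. Lymphatic-like cells lay below both, with Hspb1 in 4 of 31 wild-type and 33 of 150 knockout cells. Thinning left out 26 and 21 shallower capillary-like cells. As a gauge of free RNA, a haemoglobin UMI was present in 4.31% of wild-type and 0.984% of knockout endothelial-like aortic cells, at median depths of 2080 and 2304 UMIs before thinning.

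Capillary-like cells were shallow, with a median of 1110 UMIs in the wild type and 1339 in the knockout. Restricted to cells of at least 1000 UMIs, the Hspa1a ratio was 6.63 in the wild type and 7.04 in the knockout. In wild-type capillary-like cells erythroid markers reached 30203 CPM in sum, against 17.1 in the other endothelial-like cells, and 2409 of their 2410 haemoglobin UMIs lay in a single cell that held 0 Hspa1a UMIs. In the knockout the same markers summed to 42.9 CPM. Without every cell with a haemoglobin UMI the Hspa1a ratio was 8.34 and 6.85. Adipocyte markers summed to 62.5 and 36.8 CPM in capillary-like cells and to 0 in the others, with 3 of 5 and 2 of 5 of these markers at 0 among capillary-like cells. Pericyte markers summed to 125 and 172 CPM against 22.8 and 14.0, with 4 of 7 at 0 in each. The part of such RNA in the chaperone levels was not tested.

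Among the other aortic clusters the members varied less. Over the 8 other clusters with at least 20 cells of a library and a name, Hspa1a ranged from 10.7 to 273 CPM in the wild type and from 75.4 to 298 in the knockout. The high wild-type end was the lymphatic-like cluster, where 1 of 39 cells held 19 of the 23 Hspa1a UMIs and the level without it was 49.9 CPM. The next highest wild-type cluster, large artery-like cluster 9, was at 244. Its 10 leading genes included the immediate early genes Ier3, Fos, Fosb, Gadd45b, Nr4a1 and Zfp36 and 0 large artery markers. The low wild-type end was the vein-like cluster, with 1 Hspa1a UMI in 35 cells, against 42 UMIs and 105 CPM in the 152 knockout cells of that cluster. Among these named clusters Hspa8 was highest in the lymphatic-like and vein-like ones, at 1366 and 1297 CPM in the wild type and 1974 and 1685 in the knockout. The unnamed cluster 7, with 162 knockout cells, was at 1822. Hsp90ab1 ranged only from 998 to 1467 CPM over all 9 named wild-type clusters and from 1235 to 1661 over the knockout ones.

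The inducible to constitutive ratio was also highest in capillary-like cells. It was 1.05 (0.904 to 1.21) in the wild type and 0.769 (0.699 to 0.846) in the knockout, against 0.255 to 0.594 in the other named aortic clusters. The vein-like cluster, low in Hspa1a but with Hspb1 at 836 and 1213 CPM, was at 0.464 and 0.594, and the lymphatic-like cluster at 0.410 and 0.287.

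**Figure D4:**
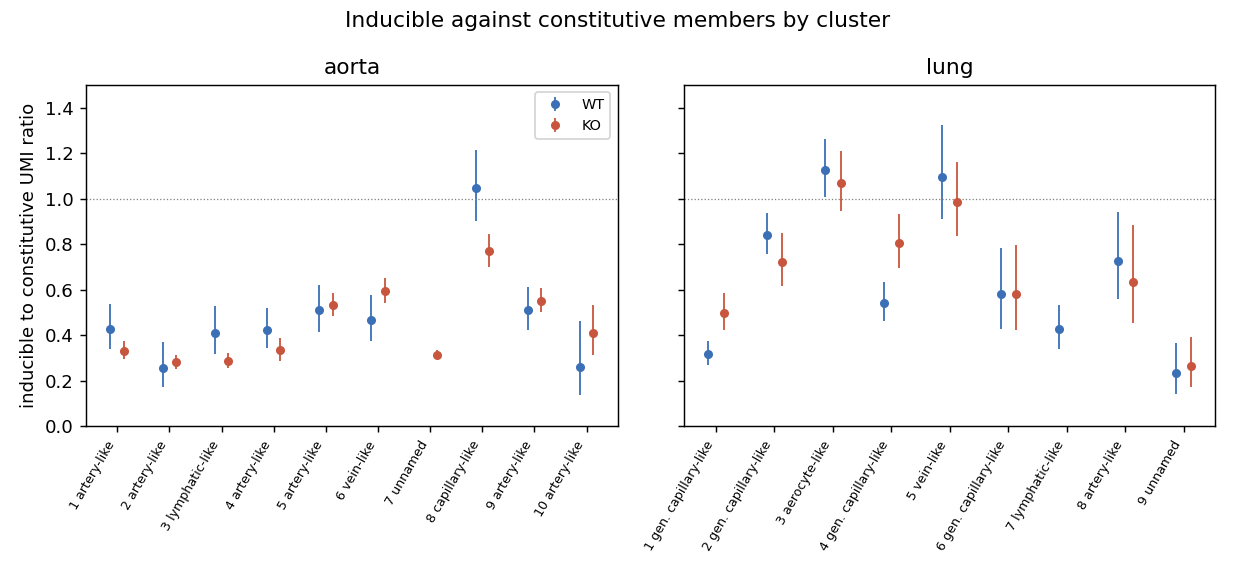
Inducible over constitutive UMIs in each cluster with at least 20 cells of a library, for aorta (left) and lung (right), with exact 95% intervals for counting error (blue, wild type, red, knockout, dotted line, equal sums). Aortic capillary-like cells (1.05 and 0.769) and the lung aerocyte-like and vein-like cells (0.987 to 1.13) stood above the other clusters of their tissue.

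Within clusters, the aortic genotype ratios could be read at a fixed makeup. Hspa8 was higher in the knockout in 8 of 9 clusters, with 7 intervals above 1, and Hsp90ab1 in 9 of 9, with 3 intervals above 1. Hspa1a was higher in 6 clusters and lower in 3, with intervals above 1 in the vein-like cluster and in large artery-like cluster 5 (2.11, 1.28 to 3.67) and below 1 in the lymphatic-like cluster (0.484, 0.292 to 0.828). That last value rested on the wild-type cell with 19 UMIs: without the cell with the most Hspa1a UMIs in each library the ratio turned to 2.37 (0.867 to 9.06). Dnajb1 was lower in knockout capillary-like cells (0.449, 0.304 to 0.661) and higher in the vein-like cluster (3.34, 1.23 to 12.7) and in large artery-like cluster 9 (3.16, 1.45 to 8.17). Hspb1 was higher in 7 of 9 clusters, with 3 intervals above 1, and Hspd1 in 8 of 9, with 0 intervals above 1. Hspe1 was higher in 3 of 9 and lower in 6, with 0 intervals that excluded 1. The other clusters with lower Hspa1a in the knockout, large artery-like clusters 1 (0.608, 0.348 to 1.10) and 2 (0.716, 0.322 to 1.88), had intervals that included 1. Hsp90aa1 was higher in 6 clusters and lower in 3. Its interval lay above 1 in large artery-like cluster 5 (2.13, 1.36 to 3.49) and below 1 in capillary-like cells (0.689, 0.521 to 0.914). Dnajb1 and Hsp90aa1 thus differed in direction between aortic clusters, while Hspa8, Hsp90ab1 and Hspb1 lay higher in the knockout in most or all clusters.

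In the lung, Hspa1a was lowest in lymphatic-like cells, at 41.8 CPM in 42 wild-type cells (the knockout had fewer than 20), and highest in vein-like cells, at 659 CPM in 50 wild-type and 1270 in 38 knockout cells. The vein-like cells were named from Slc6a2, Cpe, Vcam1, Selp, Vwf and Prss23, and their leading genes also included Tagln, a smooth muscle gene. Against the other endothelial-like lung cells, at 210 and 382 CPM, the ratios were 3.14 (2.37 to 4.10) and 3.32 (2.68 to 4.09). A single cell held 27 of the 68 wild-type UMIs and another 37 of the 127 knockout UMIs, and without them the ratios were 2.04 (1.43 to 2.84) and 2.66 (2.08 to 3.37).

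At least 1.5-fold higher in vein-like cells were 3 of 9 measured members in the wild type (Hspa1a, Hspa1b and Hspd1) and 1 of 9 in the knockout (Hspa1a), where 17.9% of 3289 and 17.2% of 3366 genes were. Single wild-type cells held 6 of 13 Hspa1b and 7 of 12 Hspd1 UMIs. Without the cell with the most UMIs of the gene on each side, the ratio was 1.62 (0.625 to 3.57) for Hspa1b and 1.14 (0.358 to 2.81) for Hspd1. With cells thinned to 1000 UMIs, each was detected in 1 of 41 wild-type vein-like cells (2.44%), against 3.94% and 4.99% of 381 general capillary-like cells. Hspa8 was at 0.850 (0.692 to 1.04) and 1.03 (0.863 to 1.22) in vein-like cells, against 3.67 and 3.24 in aortic capillary-like cells. Cryab, a small heat shock protein, was at 87.2 CPM in wild-type vein-like cells against 5.35 elsewhere, below the minimum, and at 150 against 29.0 (5.17-fold, 2.52 to 10.3) in the knockout. Smooth muscle markers reached 1386 CPM in wild-type vein-like cells, where 5 of 8 were at 0, against 16.0 in the other cells, and 89.98 against 8.47 in the knockout, where 6 of 8 were at 0. Pericyte markers reached 107 against 23.7 and 170 against 7.26, with 5 of 7 at 0 in both. The part of such RNA in these levels was not tested.

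Hspb1 followed another map. In aerocyte-like cells, the thin gas-exchange capillary cells marked by Ednrb, Fibin, Car4 and Tbx2, it was at 1487 CPM in the wild type and 1687 in the knockout, against 207 to 892 and 266 to 930 in the other named lung clusters. Hspa1a was low in the same cells, at 105 and 260 CPM. The inducible to constitutive ratio of aerocyte-like cells, 1.13 (1.01 to 1.26) and 1.07 (0.945 to 1.21), therefore rested on Hspb1: with the 4 most inducible members alone it was 0.159 and 0.234.

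The general capillary-like cells of the lung fell into 4 clusters that differed in their chaperones. Cluster 1, led by Aplnr among others, had Hspa1a at 110 and 363 CPM, Dnajb1 at 73.3 and 82.7 and an inducible to constitutive ratio of 0.317 and 0.498. Cluster 2, led by Atf3, Ier3, Hbegf and the HSP70 family gene Hspa2, had Hspa1a at 471 and 448 CPM, Dnajb1 at 411 and 264 and ratios of 0.841 and 0.724. Cluster 4, led by the interferon-induced genes Ifit1, Ifit3 and Isg15, lay between them in the wild type, with Hspa1a at 244, and had 727 CPM in the knockout.

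The higher Hspa1a of the knockout lung was not found in every cluster. The within-cluster ratio was 3.30 (2.17 to 5.11) in general capillary-like cluster 1, 2.98 (2.06 to 4.37) in general capillary-like cluster 4, 2.47 (1.58 to 3.89) in aerocyte-like cells and 1.93 (1.42 to 2.63) in vein-like cells. It was 0.95 (0.682 to 1.31) in general capillary-like cluster 2, 0.991 (0.255 to 3.44) in cluster 6 and 0.832 (0.364 to 1.79) in large artery-like cells. With few UMIs, the intervals of cluster 6 and of large artery-like cells also held the ratio of the whole libraries, 1.75. Hspa1b was higher in 6 of 6 clusters with at least 10 UMIs, with 3 intervals above 1. For Dnajb1 the knockout was higher in 3 clusters and lower in 4, with 1 interval that excluded 1, in cluster 2 (0.642, 0.422 to 0.953). Differences between clusters in these ratios were not tested.

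**Figure D5:**
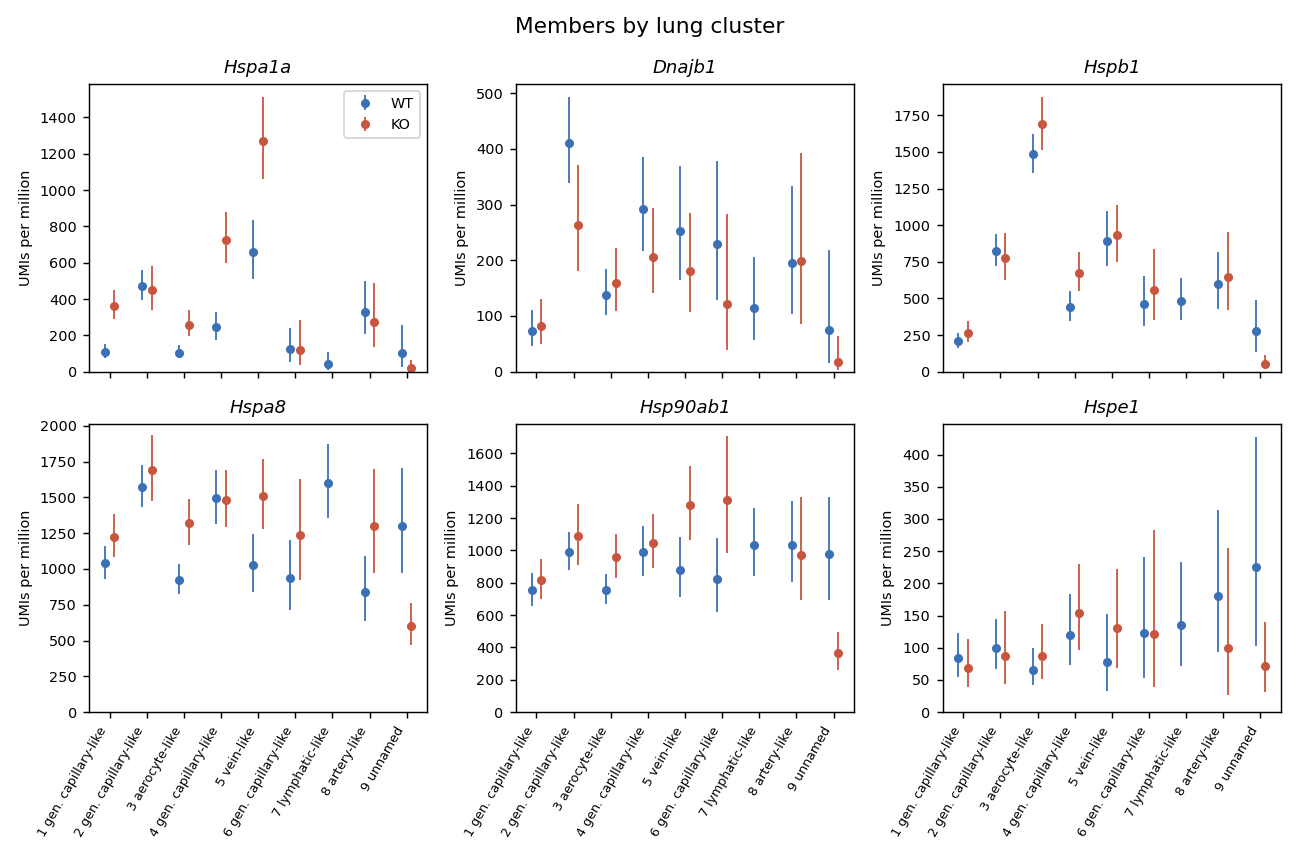
Levels of 6 members in lung clusters with at least 20 cells of a library, in CPM from 0, with exact 95% Poisson intervals for counting error (blue, wild type, red, knockout; cluster 7 has too few knockout cells). Hspa1a was highest in vein-like cluster 5 (659 and 1270) and Hspb1 in aerocyte-like cluster 3 (1487 and 1687).

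Across single cells the members differed in how evenly they were spread. Before thinning, Hspa1a was detected in 25.2% (wild type) and 27.9% (knockout) of aortic cells and in 18.6% and 23.0% of lung cells. After thinning to 1000 UMIs the shares were 13.6% and 15.1% in aorta and 11.8% and 18.2% in lung. Before thinning, haemoglobin UMIs were found in 4.31% and 0.984% of endothelial-like cells in aorta and 0.136% and 13.1% in lung, at median depths of 1665 to 2304 UMIs.

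After thinning, the variance-to-mean ratio of Hspa1a was 2.51 (wild type) and 1.91 (knockout) in aorta and 3.04 and 3.78 in lung, against medians of 1.05 to 1.12 for genes within 1.25-fold of its mean. Only 7 of 324, 17 of 332, 6 of 337 and 2 of 174 such genes were more variable. Hspb1 was similar, at 2.08 to 2.80 with 4 to 6 more variable genes. Hsp90ab1, at 1.13 to 1.27, lay below the median of genes of its level in all 4 libraries (1.31 to 1.37), and Hspe1 was at 0.958 to 1.11. Unevenness did not follow the classes. Hspa8 was at 2.27 and 1.94 in the aorta, where 6 of 44 and 11 of 52 genes of its level were more variable, but at 1.45 and 1.37 in the lung. Hspa1b was at 1.51 and 1.62 in the lung but at 1.20 and 0.983 in the aorta, where in the knockout 909 of 1387 genes of its level were more variable. Hsph1, with few UMIs, was at 0.977 to 1.27.

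The members' levels per cell were compared with each other and with 2158 other genes detected in at least 10% of cells of every library, by Pearson r across cells with the summed signal of Hspa1a, Hspa1b, Dnajb1 and Hsph1. These are descriptions across cells of the same libraries, which share depth and cell types. Averaged over the 4 libraries, r was 0.25 for Hspb1, 0.23 for Hsp90aa1 and 0.22 for Hspa8, but 0.13 for Hsp90ab1, 0.06 for Hspe1 and 0.04 for Hspd1. With cells thinned it was 0.17 for Hspb1, 0.16 for Hsp90aa1, 0.12 for Hspa8 and 0.07 for Hsp90ab1. The median over the 2158 genes was 0.02 and the 95th percentile 0.10. Hspa8 thus lay with the inducible Hspb1 and Hsp90aa1, and the mitochondrial pair within the bulk of genes. Among the summed members, mean r was 0.24 for Hspa1a with Hspa1b, 0.18 for Hspa1a with Dnajb1 and 0.09 for Hspa1b with Dnajb1. For Hsph1, with few UMIs, it was 0.02 with Hspa1a, 0.02 with Hspa1b and −0.01 with Dnajb1.

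The 6 non-member genes most like the inducible signal were all immediate early transcription factors or regulators: Junb (mean r 0.41), Fos (0.39), Egr1 (0.32), Ier2 (0.31), Fosb (0.30) and Jun (0.30). With cluster means taken out, their r lay between 0.22 and 0.31, and after thinning between 0.18 and 0.30. After thinning Junb and Fos still ranked 1 and 2, but Fosb ranked 5, Egr1 7, Jun 13 and Ier2 16 of the 2158 genes. Junb and Egr1 were also higher in aortic capillary-like cells, Junb at 4661 against 878 CPM in the wild type and 3095 against 961 in the knockout, and Egr1 at 1075 against 234 and 760 against 202. Fos was at 2624 against 1669 and 1882 against 1552 CPM.

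Lists of related genes placed the members among other chaperones and stress genes. Of 15 HSF1-induced co-chaperones 8 were measured in aortic capillary-like cells, and 3 of 8 were at least 1.5-fold higher in the wild type and 3 of 8 in the knockout, where 25.2% and 21.9% of all genes measured were. Dnaja1, an HSP40 of the cytosol, was the highest in the wild type, at 3.90-fold (2.95 to 5.09), and was at 2.93-fold (2.47 to 3.45) in the knockout. Of 20 measured immediate early genes, 16 were at least 1.5-fold higher in the wild type and 14 in the knockout, with median log2 ratios of 0.87 and 0.88. Btg2 was highest in the wild type, at 7.66-fold, and Rhob lowest, at 0.909 and, in the knockout, at 0.663, the 1 such gene at least 1.5-fold lower. The listed small heat shock proteins, which do not include the member Hspb1, were all below the minimum there.

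Other chaperone systems were mixed in these cells, where 31.4% of all genes measured in the wild type and 23.1% in the knockout were at least 1.5-fold lower. The 7 measured subunits of the cytosolic chaperonin CCT had median log2 ratios of −0.65 and −0.12, with 0 at least 1.5-fold higher and 4 and 1 at least 1.5-fold lower. Of 9 ER chaperones, 3 were at least 1.5-fold higher and 4 lower in the wild type, and 2 higher and 4 lower in the knockout. Hspa5, the ER HSP70 known as BiP, was at 3.42 (2.67 to 4.33) times the level of other cells in the wild type and 2.09 (1.79 to 2.43) in the knockout, where Dnajb9, an ER HSP40, was highest at 2.47 (1.80 to 3.31), while the disulfide isomerase Pdia3 was at 0.379 and 0.426. Of the constitutive co-chaperones, 0 of 12 and 1 of 14 were at least 1.5-fold higher and 2 and 1 lower. Of the mitochondrial chaperones and proteases only 2 were measured, with 0 at least 1.5-fold higher and 1 lower in each library.

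Between genotypes these lists were quieter. In the aorta, 7 of 7 CCT subunits were above the wild type with a median log2 ratio of 0.33 and 0 at least 1.5-fold, beside 0.04 over all genes. The ER chaperones had a median of 0.22, with the collagen chaperone Serpinh1 at 1.66-fold (1.43 to 1.94), and Hspa5 was at 1.42 (1.27 to 1.58). The constitutive co-chaperones had a median of 0.10, with the HSP90 cyclophilin Ppid at 1.64-fold (1.19 to 2.33), and the HSF1-induced co-chaperones 0.02, from Fkbp4 at 0.828 to Ahsa1 at 1.29. The 4 mitochondrial genes measured had a median of −0.26, and 15 of 20 immediate early genes were below the wild type with a median of −0.11.

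In the lung, the medians were 0.30 for ER chaperones, led by Calr at 1.35 (1.13 to 1.60), −0.12 for the HSF1-induced co-chaperones, −0.04 for the constitutive ones, −0.11 for CCT, −0.02 for the mitochondrial genes and −0.17 for the immediate early genes, beside −0.07 over all genes. Dnaja1 was at 1.44 (1.26 to 1.64) in the knockout lung and Ubb, a polyubiquitin gene, at 0.774 (0.745 to 0.804). Gadd45b, at 0.646 (0.536 to 0.776), was the 1 gene of these lists past 1.5-fold. Bag3, an HSF1 target that releases clients from HSP70, was at 0.859 (0.615 to 1.19) in the lung, against 1.75 for Hspa1a. Hsf1 itself had 20.8 to 33.0 CPM and Cryab, a small heat shock protein, 18.7 to 55.0 CPM across libraries, and none of the 6 listed small heat shock proteins reached the minimum between genotypes. Between wild-type tissues, 13 of 20 immediate early genes were at least 1.5-fold lower in aorta than in lung and 1 higher, where 24.9% and 14.0% of all genes measured were, with a median log2 ratio of −0.72 beside −0.09 over all genes.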

How the data were processed

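Values are raw UMI counts per gene and cell barcode, deposited by the authors; per the submitters' processing notes they were made with Cell Ranger on mm10, whose version is not stated there. Lung Ensembl identifiers were mapped to symbols with GENCODE M21 (30934 of 31053 matched). UMIs were summed over kept cells and scaled to 1000000 (CPM). Levels carry exact Poisson and ratios exact conditional 95% intervals, which cover counting error only. Each group is 1 library, so no test was made. The interval and call scripts were tested on simulated Poisson counts per library. Such counts carry no spread between cells, so the simulation cannot show how the intervals fare for unevenly spread members.

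Cells were clustered per tissue with scanpy 1.11.5 and leidenalg 0.10.2 (2000 variable genes, 30 components, resolution 1) and named from markers. Scrublet called 3 wild-type aortic, 3 knockout aortic, 10 wild-type lung and 4 knockout lung doublets, which were kept. The members, gene lists and markers were chosen with earlier results of these data known. Named genes were all members; Hsf1, Bag3, Dnaja1, Hspa5 and Cryab; the highest and lowest gene of each list by ratio (1 such gene is not reported here); and the 6 genes most like the inducible signal. Other named genes, such as Hspa2, Junb and Egr1 among capillary-like cells, cluster leaders and markers, describe clusters or that signal. Alternatives changed the cell filter, the cells included, depth, weighting, scaling, thresholds, the classes and the clustering.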

Additional observations from a re-analysis of the deposited data

How the results depend on the processing

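No paired analysis was possible because each group is 1 library and the labels carry no replicate pairs. With 1 library a group, mouse-to-mouse spread is unknown, and depth limits Hsph1 and the aortic Hspa1b. Over the alternatives, 116 of 130 member ratios between genotypes in the aorta, 100 of 110 in the lung and 111 of 130 between wild-type tissues moved by less than their counting interval. Leaving out the capillary-like cluster, the unnamed endothelial-like aortic cluster or the barcode with the most UMIs was chosen after seeing the data, as were taking cluster means out of the correlations and, for capillary-like and vein-like cells, leaving out cells by depth, haemoglobin or the most UMIs of the gene. The causes of the changes below were not tested, apart from those that follow from fewer members or a higher threshold.

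The members at least 1.5-fold higher in the knockout aorta numbered 1 in place of 0 with the stricter cell filter, with cells thinned, and without the capillary-like cluster, and 1 was lower with the mean of per-cell CPM. In the knockout lung 1 in place of 2 remained counted at 2-fold. Between wild-type tissues, the members higher in the aorta numbered 0 in place of 1 with no cell filter, the stricter filter, without the highest cell, with cells thinned, without the barcode with the most UMIs and at 2-fold, 2 with the median log2 ratio set to 0, and 3 when scaled without mitochondrial, ribosomal protein and haemoglobin genes. Those lower numbered 0 in place of 1 with the mean of per-cell CPM and at 2-fold, 2 with a minimum of 20 CPM, and 3 without the capillary-like cluster. The wild-type tissue log2 ratios of Hspa1a and Hspa8 reversed to 0.16 and 0.0493 with the mean of per-cell CPM, and that of Hspa8 to 0.0059 with clusters weighted alike. Without the cell with the most Hspa1a UMIs in each library the log2 ratio of knockout to wild type in aortic lymphatic-like cells reversed to 1.25. With the members and lists kept among the variable genes, 2 in place of 1 members were higher in knockout vein-like cells.

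The inducible to constitutive ratios, given for aorta (wild type, knockout) and then lung (wild type, knockout), were 0.296, 0.232, 0.381 and 0.433 without Hspb1, 0.387, 0.301, 0.585 and 0.579 without Hsp90aa1, 0.146, 0.107, 0.230 and 0.281 with the 4 most inducible members, and 0.924, 0.779, 1.60 and 1.62 without Hspa8. With the mean of per-cell CPM the aortic values were 0.579 and 0.444, and without the capillary-like cluster 0.450 and 0.401. For the knockout aorta, leaving out the unnamed cluster gave 0.463, endothelial-like cells alone gave 0.413, thinned cells 0.450 and clusters weighted alike 0.496. For the wild-type lung thinned cells gave 0.689. In each of these settings both lung values stayed above both aortic ones.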
